A study of Mus musculus with 37 samples.

Results

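Genes of muscle atrophy and autophagy were followed in the left ventricle of mice after cardiac arrest. They were the 10 genes named Fbxo32, Trim63, Foxo1, Foxo3, Map1lc3a, Map1lc3b, Sqstm1, Gabarapl1, Bnip3 and Ulk1, of 56748 genes in the expression table, and each was found once. Bulk RNA-seq was available from 37 libraries in 9 groups. All mice were C57BL/6J of either sex, 8 to 10 weeks of age, and all were anaesthetised with isoflurane. Naïve mice (5 libraries) had no further intervention and were neither intubated nor injected. Adr mice, called sham in the labels, were intubated and ventilated, received saline into the left ventricle and, 8 min later, adrenaline. Arrest mice were intubated and ventilated in the same way, but the injection held potassium chloride, which stopped the heart for 8 min, and they were then resuscitated with adrenaline and chest compressions. Adr and Arrest hearts were taken after 0.5, after 1, after 3 or after 7 days, with 4 libraries per group, so that Adr carries the injection, the ventilation and the drug without the arrest. Arrest libraries come from mice that were resuscitated and lived to the time point. Per the study's methods the apex was discarded before RNA was made from the left ventricle. The samples are not stated to be from separate animals in the labels, and p-values measure the spread between these libraries.

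Heart muscle breaks down its own proteins along 2 main routes. In the ubiquitin route, muscle-specific ligases tag contractile proteins for the proteasome. Fbxo32 (atrogin-1) is the substrate-binding subunit of such a ligase, Trim63 (MuRF1) is a RING-finger ligase of the sarcomere, and both are classic markers of muscle wasting. Foxo1 and Foxo3 are forkhead transcription factors that insulin signalling holds outside the nucleus and that can switch on the ligases and many autophagy genes. In autophagy, the kinase Ulk1 starts the growth of a membrane sac around the cargo. Proteins of the Atg8 family, among them those made from Map1lc3a, Map1lc3b and Gabarapl1, are coupled to lipids of that membrane. Sqstm1 (p62) is a receptor that binds both ubiquitin-tagged cargo and Atg8 proteins, and Bnip3 is a mitochondrial outer membrane protein that recruits Atg8 proteins to mitochondria and is a well-known target of the hypoxia response. Transcript levels are not a measure of autophagic flux, which depends on the turnover of the proteins.

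Levels were given by the authors as FPKM, which counts fragments per 1e6 fragments of a library total and per 1000 bases of the gene, so that genes can be compared with one another per length. The total implied by the values differed from the fragments counted on genes, in both directions. It was 12.9 M (M, 1e6 fragments) against 14.5 M counted in library 3 of Arrest at 1 day. In library 3 of Adr at 3 days it was 24.1 M against 17.2 M. The values thus carry a further scaling, which is not described in the sources used here. Map1lc3a was the most abundant member with a mean of 365 FPKM over the 37 libraries, followed by Sqstm1 with 109 FPKM, Bnip3 with 86.8 FPKM and Gabarapl1 with 57.7 FPKM. Trim63 had a mean of 45.0 FPKM and Map1lc3b of 39.5 FPKM. Fbxo32 (14.6 FPKM), Ulk1 (11.3 FPKM), Foxo3 (9.24 FPKM) and Foxo1 (2.89 FPKM) were the 4 lowest. All 10 members passed the filter on low values of at least 0.5 FPKM in at least 4 libraries, as did 16579 genes in all. Foxo1 rested on the fewest fragments, 59 in the Naïve library with its lowest value and at most 982 in any library. Atg8 homologues are a gene family, and how fragments shared between related genes were counted is not given in the sources used here.

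The deposited table places the ligases Fbxo32 (ENSMUSG00000022358) at chr15:58039275-58078328 and Trim63 (ENSMUSG00000028834) at chr4:134042431-134056940. It places Foxo1 (ENSMUSG00000044167) at chr3:52175757-52260642, Foxo3 (ENSMUSG00000048756) at chr10:42057837-42152751 and Ulk1 (ENSMUSG00000029512) at chr5:110932354-110957963. The Atg8 homologues are at chr2:155118217-155119993 for Map1lc3a (ENSMUSG00000027602), chr8:122317100-122325499 for Map1lc3b (ENSMUSG00000031812) and chr6:129510123-129519309 for Gabarapl1 (ENSMUSG00000030161). Sqstm1 (ENSMUSG00000015837) is at chr11:50090193-50101654 and Bnip3 (ENSMUSG00000078566) at chr7:138492565-138511248. The table does not name its genome build, and none of these starts (0 of 10) lay within 10000 bases of the same gene's start in GRCm38.p6, so these coordinates are not of that build. All 10 are protein-coding genes, and the gene lengths behind the FPKM values ran from 1181 bases for Map1lc3a to 8665 bases for Foxo1.

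Promoters of the members were read from RefSeq (GRCm38.p6, 250 bases before to 50 after the start of each gene). Among the promoter sequences of this length used here, 8 of the 10 members had one, and Fbxo32 and Map1lc3a did not. These 8 promoters were searched on both strands for 4 motifs of factors tied to these genes: the forkhead motif GTAAACA, the E-box CACGTG read by the lysosomal regulator TFEB and others, the hypoxia response core ACGTG, which also lies within that E-box, and the hexamer TGTTCT of the glucocorticoid receptor. All matches lay in Trim63 and Bnip3, and they are shown because FoxO factors and the glucocorticoid receptor are known regulators of Trim63 and hypoxia-inducible factors of Bnip3. The match is in capitals, and each sequence is on the gene's strand.
Trim63, forkhead motif, chr4:134314914-134314943, plus strand: acagtctgttctTGTTTACgacccccacgg
Trim63, glucocorticoid hexamer, chr4:134314908-134314937, plus strand: ctctgaacagtcTGTTCTtgtttacgaccc
Bnip3, E-box, chr7:138909597-138909626, minus strand: gcgcacgcgccgCACGTGccacacgctccc
In Trim63 the glucocorticoid hexamer began 200 bases (position -200) and the reverse complement of the forkhead motif 194 bases (position -194) before the start, and the 2 windows overlap. In Bnip3 the E-box began at position -108 and is also its match to the hypoxia response core. Each of the 4 motifs was found in 1 of the 8 promoters, against 3.65% of all 32851 promoters of the same length for the forkhead motif, 7.15% for the E-box, 19.6% for the hypoxia core and 19% for the glucocorticoid hexamer. A match of this kind is a description of the letters in the window and not evidence of binding.

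The libraries held 13.2 to 30.2 M fragments counted on genes (M, 1e6 fragments), which sets the precision of low values. Library 4 of Adr at 1 and 3 days and of Arrest at 0.5, 3 and 7 days held 21.7 to 30.2 M, and the other 32 libraries 13.2 to 18.5 M. All 8 ventricular cardiomyocyte markers were expressed in every library, and the 8 skeletal muscle markers summed to 1.01 to 7.12 FPKM, with the fast myosin gene Myh4 at 0 in all 37 libraries and Tnni2 and Mylpf at up to 3.59 and 4.57 FPKM. Library 3 of Adr at 3 days stood apart from the other 36. Its ventricular marker sum was 2292 FPKM against 6809 to 13957 FPKM elsewhere, its fibroblast marker sum was 819 FPKM against 209 to 482 FPKM, and its share of mitochondrial transcripts was 9.36% against 20.8% to 30.9%. The study's methods state that 1 Adr sample of day 3 was left out for poor quality, without saying in the labels which one, and all 4 were kept here. Naïve library 4 had 13475 genes above 0, the fewest of all (others 15398 to 21377). In bulk tissue, fewer cells of a type and less RNA per cell cannot be told apart.

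The comparison of each Adr and Arrest group with Naïve asks how the program differs from that of an unmanipulated heart. At 1 day after arrest, 5 of the 10 members rose against Naïve and none fell (limma on log2(FPKM + 1), Benjamini-Hochberg adjusted p of at most 0.05), while 7.11% of all genes tested passed, 3.89% higher and 3.22% lower. The 5 were the 3 Atg8 homologues, the receptor Sqstm1 and the mitophagy protein Bnip3. The ligases, the FoxO factors and Ulk1 made up the other 5. The members were chosen with earlier results of these data known, so their count is not independent of these values. In the 5 members that rose, every Arrest library at 1 day lay above every Naïve library, which was the case for 5.69% of all genes tested. They were picked by the test between the same groups, so this separation follows in part from that choice. The median difference of the 10 members was 0.44 on the log2 scale and that of all genes 0.03. In the other 15 comparisons limma called 0 of 10 members, and these are given by their values.

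**Figure D1:**
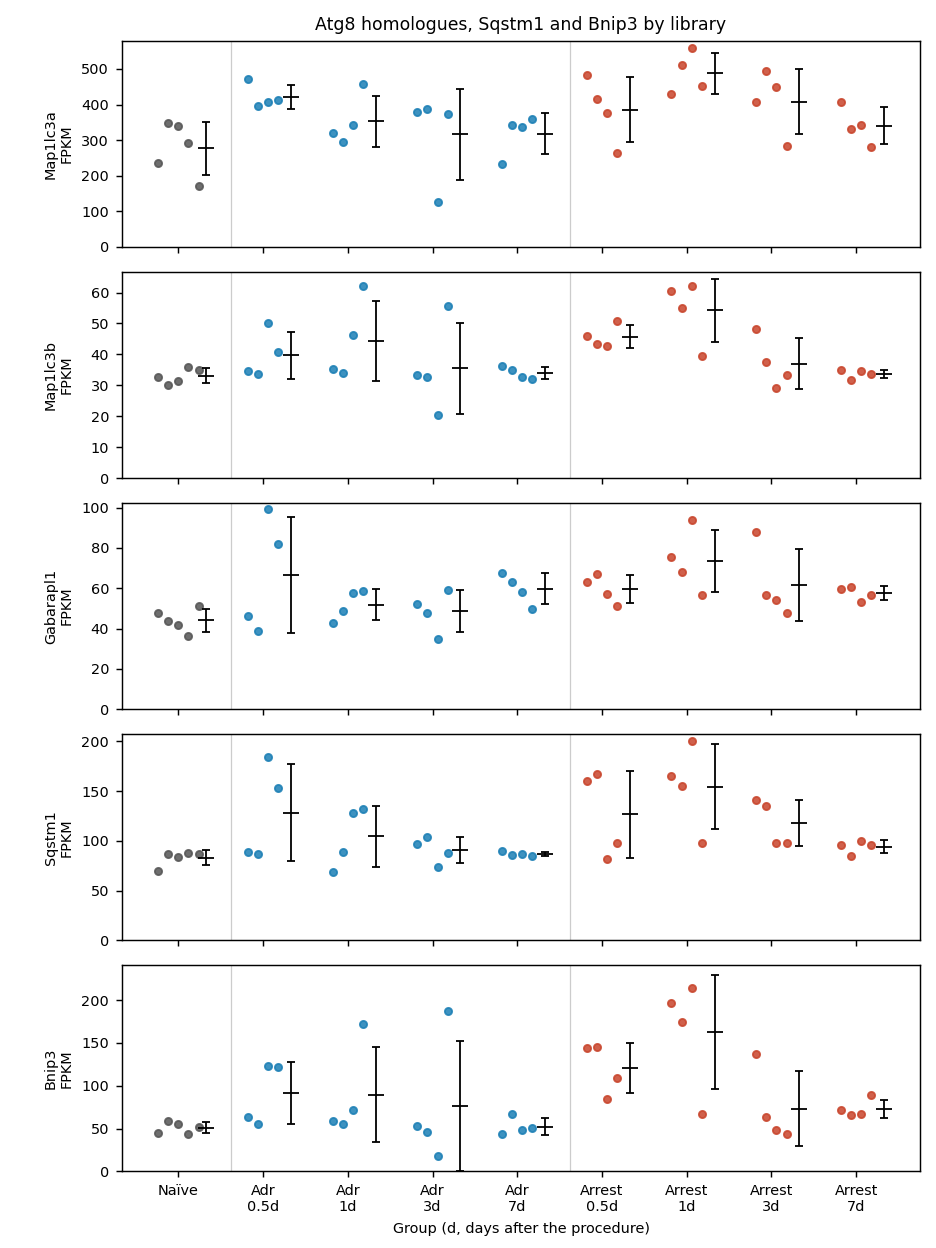
FPKM of Map1lc3a, Map1lc3b, Gabarapl1, Sqstm1 and Bnip3 (vertical axes, starting at 0) in each of the 37 libraries by group (horizontal axis). Points are libraries, and the bar beside them is the mean with 1 SD. In each panel the 4 Arrest libraries at 1 day lie above the 5 Naïve libraries, and the Bnip3 panel shows single high libraries in Adr at 1 and 3 days.

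Map1lc3a, the Atg8 homologue LC3A, was at 234, 347, 339, 292 and 173 FPKM in the 5 Naïve libraries. In the 4 Arrest libraries at 1 day it was at 431, 510, 558 and 452 FPKM. The groups did not overlap, and the spread among Naïve libraries was wide. The means were 488 FPKM ± 57.4 (SD, n = 4) and 277 FPKM ± 73.7 (SD, n = 5), a difference of 0.85 on the log2(FPKM + 1) scale (SE 0.25, limma adjusted p = 0.0336). In the other Arrest groups it ranged from 265 to 483 FPKM at 0.5 days, from 283 to 496 FPKM at 3 days and from 282 to 407 FPKM at 7 days, each overlapping Naïve. Adr at 0.5 days held 471, 395, 406 and 413 FPKM, all above the Naïve libraries, which held for 3.35% of all genes tested, and the difference of 0.65 did not pass the test (limma adjusted p = 0.226).

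Map1lc3b, which makes LC3B, the protein most used to mark autophagosomes, was at 32.6, 30.2, 31.4, 35.9 and 35.0 FPKM in Naïve. At 1 day after arrest it was at 60.4, 54.9, 61.99 and 39.5 FPKM. Libraries 1 to 3 stood well above Naïve, and library 4 lay just above the highest Naïve library. The means were 54.2 FPKM ± 10.3 (SD, n = 4) and 33.0 FPKM ± 2.42 (SD, n = 5), a difference of 0.68 (SE 0.19, limma adjusted p = 0.0235). Arrest at 0.5 days also lay above every Naïve library, with 45.8, 43.5, 42.6 and 50.8 FPKM, a separation shared by 4.49% of all genes tested, without passing the test (0.46, limma adjusted p = 0.182). By 7 days Map1lc3b was within the Naïve range in all Arrest libraries, at 31.8 to 34.8 FPKM.

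Gabarapl1, an Atg8 homologue of the GABARAP branch, was at 47.5, 43.7, 41.6, 36.5 and 50.9 FPKM in Naïve. At 1 day after arrest it was at 75.4, 68.1, 93.6 and 56.9 FPKM, with no overlap. The means were 73.5 FPKM ± 15.4 (SD, n = 4) and 44.0 FPKM ± 5.52 (SD, n = 5), a difference of 0.71 (SE 0.20, limma adjusted p = 0.0274). Gabarapl1 was also above every Naïve library at 0.5 days after arrest, at 51.1 to 66.9 FPKM (4.49% of all genes tested). The difference of 0.43 did not pass (limma adjusted p = 0.253). At 7 days after arrest it again lay above every Naïve library, at 53.2 to 60.7 FPKM (1.03% of all genes tested). That difference of 0.39 did not pass either (limma adjusted p = 0.967). Adr at 7 days, at 49.7 to 67.5 FPKM, overlapped Naïve by its lowest library.

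Sqstm1, the cargo receptor p62, was at 69.7, 87.2, 83.3, 87.8 and 86.4 FPKM in Naïve. At 1 day after arrest it was at 165, 155, 201 and 97.4 FPKM. Library 4 was again the lowest of its group, above but near the Naïve libraries. The means were 155 FPKM ± 42.9 (SD, n = 4) and 82.9 FPKM ± 7.54 (SD, n = 5), a difference of 0.85 (SE 0.22, limma adjusted p = 0.0187), the smallest adjusted p among the members. At 0.5 days after arrest the libraries fell apart into 160 and 167 FPKM and 81.3 and 97.8 FPKM, the lower pair at or near the Naïve level. Adr at 0.5 days showed a like split, with 88.5 and 86.6 FPKM in libraries 1 and 2 and 184 and 153 FPKM in libraries 3 and 4.

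Bnip3, the mitochondrial receptor, had the largest difference of the members. It was at 45.1, 58.8, 55.0, 44.2 and 52.0 FPKM in Naïve and at 196, 174, 215 and 66.5 FPKM at 1 day after arrest. Libraries 1 to 3 were far above Naïve, and library 4 was close to its upper end. The means were 163 FPKM ± 66.3 (SD, n = 4) and 51.0 FPKM ± 6.29 (SD, n = 5), a difference of 1.53 (SE 0.43, limma adjusted p = 0.0245). At 0.5 days after arrest Bnip3 was at 144, 145, 84.2 and 109 FPKM, above every Naïve library as well (4.49% of all genes tested). That difference was 1.20 (SE 0.43, limma adjusted p = 0.112). Bnip3 also lay above every Naïve library at 7 days after arrest, at 65.9 to 88.8 FPKM (1.03% of all genes tested). The difference of 0.52 (SE 0.43) did not pass the test. High values also occurred without arrest. Libraries 3 and 4 of Adr at 0.5 days held 123 and 122 FPKM, library 4 of Adr at 1 day 172 FPKM, and library 4 of Adr at 3 days 187 FPKM. The last 2 are among the 5 deepest libraries, and the other 3 of these held 109, 43.7 and 88.8 FPKM. The lowest value of all, 17.9 FPKM, was in the library of Adr at 3 days that stood apart.

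**Figure D2:**
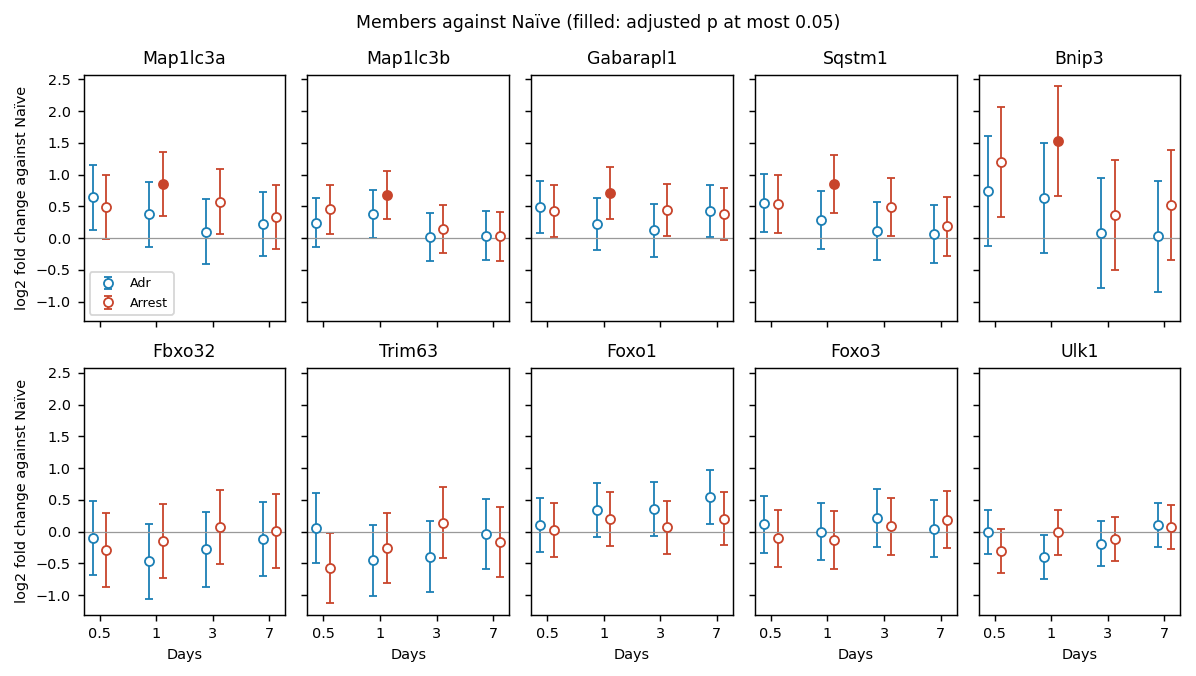
Difference from Naïve in log2(FPKM + 1) (vertical axis) on days 0.5, 1, 3 and 7 (horizontal axis) for each member, Adr in blue and Arrest in red. Bars are 95% confidence intervals from limma, and filled points passed the adjusted p of 0.05. Only the 5 Arrest points at 1 day of the upper row are filled.

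The call at 1 day rested on few libraries. Without Arrest library 1 or without library 3 at 1 day, limma called 0 of 10 members, and without library 2 it called 2 (Sqstm1 and Gabarapl1). The differences themselves moved less. Without library 1 they were 0.91 for Map1lc3a, 0.62 for Map1lc3b, 0.69 for Gabarapl1, 0.80 for Sqstm1 and 1.40 for Bnip3 (adjusted p from 0.0584 to 0.0866), and without library 3 they were 0.79, 0.61, 0.59, 0.71 and 1.36 in the same order (adjusted p from 0.0972 to 0.134). Without library 4, the lowest in 4 of the 5, they were 0.89, 0.82, 0.83, 1.05 and 1.92, and all 5 were called. With quantile normalization 0 were called (Bnip3 1.29, adjusted p = 0.0504, with adjusted p from 0.00443 to 0.218 over its 50 alternatives). With the number in the samples' descriptions as a covariate, 0 were called as well. The differences were then 0.55 for Gabarapl1 to 1.75 for Bnip3 (limma adjusted p from 0.195 to 0.448). That number does not overlap between Arrest at 1 day and Naïve, so within this comparison it cannot be told apart from the group. The deposited values also carried a trend with gene length that differed between the groups: when each library was set against the mean over the 37, the Spearman correlation of that log2 ratio with gene length was 0.08 to 0.26 in Naïve and -0.26 to -0.11 in Arrest at 1 day. In Adr at 0.5 days, where Map1lc3a also lay above every Naïve library, the correlation was -0.23 to -0.07. With that trend removed, 2 members were called at 1 day after arrest, Map1lc3b and Sqstm1, and the difference of Map1lc3a, the shortest member, was 0.60 in place of 0.85 (adjusted p = 0.140, from 0.00338 to 0.265 over its 50 alternatives). The difference of these 5 members was above 0 under each of their 50 alternatives, from at least 0.51 for Map1lc3a to 1.92 at most for Bnip3.

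Markers of cell types are given beside the rise. In limma, 3601 of all 16579 genes had an unadjusted p under 0.05 between Arrest at 1 day and Naïve. The summed FPKM of the 8 ventricular cardiomyocyte markers was 11280 to 13957 in Arrest at 1 day and 8788 to 11023 in Naïve, so these groups did not overlap, although 0 of the 8 genes passed the test in limma (1 at an unadjusted p under 0.05, lower). Neutrophil markers summed to 5.81 to 19.5 FPKM against 0 to 9.74 FPKM, with 0 of 4 tested genes called (2 at an unadjusted p under 0.05, both higher). Macrophage markers summed to 121 to 196 FPKM against 100 to 167 FPKM, with Cd163 called as higher. The 5 endothelial markers summed to 124 to 187 FPKM against 159 to 173 FPKM, with Kdr and Cdh5 called as lower. The 5 atrial markers summed to 32.7 to 72.7 FPKM against 13.8 to 32.4 FPKM, without overlap, with 0 of 4 tested genes called and 0 at an unadjusted p under 0.05. The 6 fibroblast markers summed to 283 to 365 FPKM against 226 to 303 FPKM, with 0 called (1 higher and 1 lower at an unadjusted p under 0.05). The 5 smooth muscle markers summed to 50.3 to 131 FPKM against 59.8 to 157 FPKM, with Myh11 called as lower (-0.90, limma adjusted p = 0.0229). Skeletal muscle markers summed to 1.82 to 7.12 FPKM against 1.40 to 5.60 FPKM, with Mylpf called as lower (-1.07, limma adjusted p = 0.0387) and Tnni2 as higher (0.96, limma adjusted p = 0.0425). The 5 adipocyte markers summed to 0.413 to 1.72 FPKM against 0 to 2.66 FPKM, with 0 of 4 tested genes called and 0 at an unadjusted p under 0.05. The 5 red blood cell markers summed to 1563 to 1719 FPKM against 1697 to 3951 FPKM, with none of them called (0 of 5, and 1 lower at an unadjusted p under 0.05). The part of cell composition in the members' rise was not tested.

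The muscle ligases were not called at 1 day. Fbxo32 was at 16.9, 14.9, 15.5, 15.5 and 15.003 FPKM in Naïve and at 13.9, 15.1, 23.8 and 7.34 FPKM at 1 day after arrest. Arrest libraries thus lay on both sides of a narrow Naïve range. The difference was -0.15 (95% interval -0.74 to 0.43, limma adjusted p = 0.822), an interval that reaches changes of moderate size in either direction.

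Trim63 was at 50.7, 46.4, 49.9, 51.0 and 47.4 FPKM in Naïve and at 35.9, 38.0, 75.9 and 26.9 FPKM at 1 day after arrest, a difference of -0.26 (95% interval -0.81 to 0.30, limma adjusted p = 0.646). Library 3 was above and the other 3 below all Naïve libraries. At 0.5 days the 4 Arrest libraries held 40.6, 33.5, 26.8 and 30.9 FPKM and lay below every Naïve library, as did 3.7% of all genes tested. That difference of -0.57 (SE 0.27) did not pass the test (limma adjusted p = 0.255). They also lay below every Adr library of the same time (44.3, 41.1, 56.6 and 65.3 FPKM), as did 1.9% of all genes tested, with a difference of -0.63 (SE 0.29) that did not pass either (limma adjusted p = 1). The highest group mean of both ligases was in Arrest at 3 days, 17.1 FPKM ± 5.70 for Fbxo32 and 56.1 FPKM ± 16.7 for Trim63 (SD, n = 4), and in both library 1 was the highest of its group, with 25.3 and 77.3 FPKM.

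**Figure D3:**
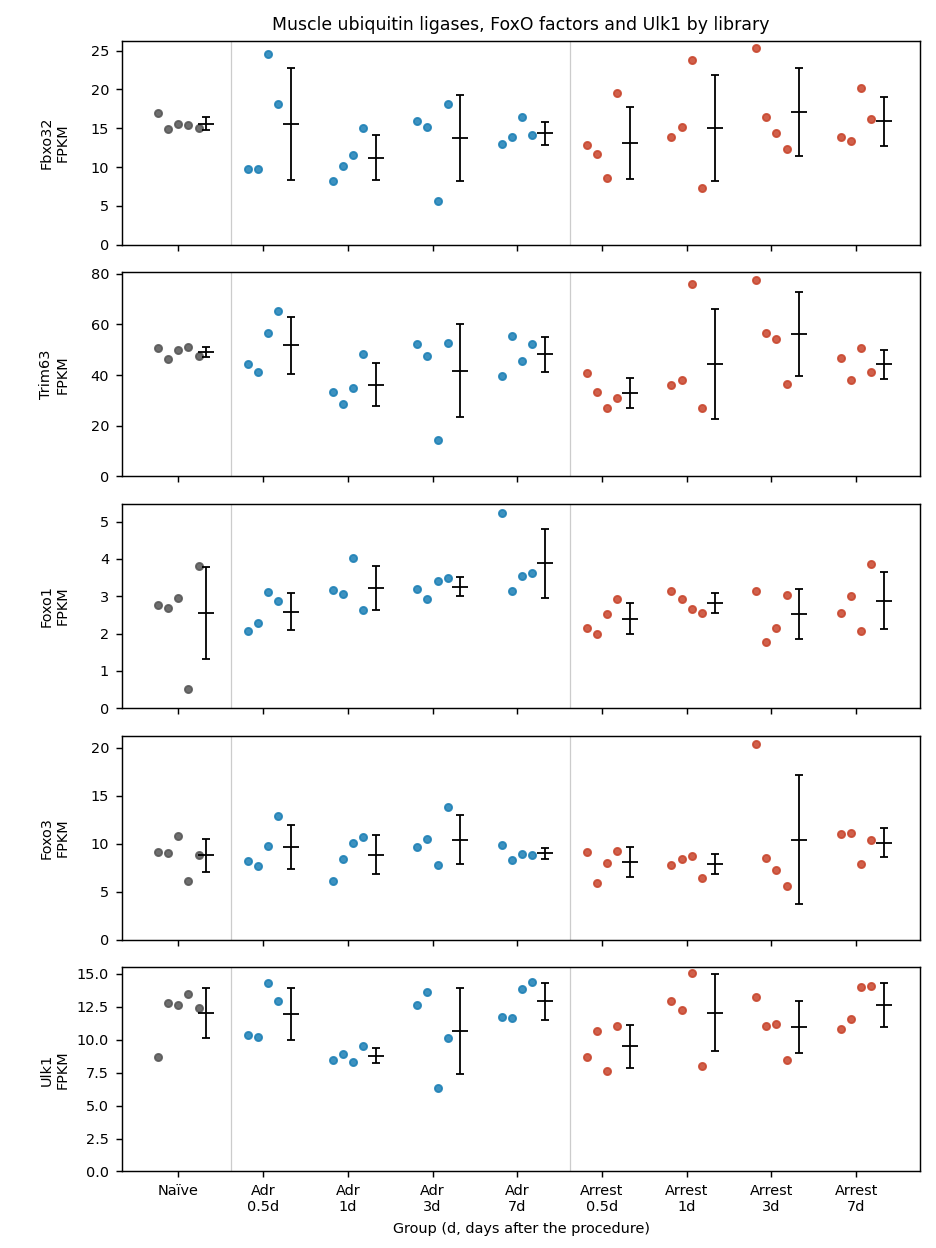
FPKM of Fbxo32, Trim63, Foxo1, Foxo3 and Ulk1 (vertical axes, starting at 0) in each of the 37 libraries by group (horizontal axis). Points are libraries, and the bar beside them is the mean with 1 SD. Trim63 in Arrest at 0.5 days, at 26.8 to 40.6 FPKM, lies below the Naïve libraries, and Foxo3 has a single high library in Arrest at 3 days.

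The FoxO factors were not called at any time. Foxo1 was at 2.77, 2.70, 2.95, 0.501 and 3.82 FPKM in Naïve, the low value being that of library 4, and at 3.13, 2.93, 2.66 and 2.55 FPKM at 1 day after arrest. The difference was 0.20 (95% interval -0.22 to 0.63, limma adjusted p = 0.632), and without Naïve library 4 it was -0.08, so this library set its direction. Its highest group was Adr at 7 days, with 5.23, 3.14, 3.54 and 3.62 FPKM, where the difference from Naïve was 0.54 (SE 0.21, limma adjusted p = 0.706), and 0.26 without Naïve library 4. Foxo3 was at 9.17, 9.05, 10.8, 6.07 and 8.85 FPKM in Naïve and at 7.78, 8.44, 8.77 and 6.46 FPKM at 1 day after arrest, a difference of -0.13 (95% interval -0.58 to 0.32, limma adjusted p = 0.794). One library of Arrest at 3 days, library 1, held 20.4 FPKM of Foxo3, more than any other library, while the other 3 held 8.50, 7.27 and 5.58 FPKM.

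Ulk1, the initiating kinase, was at 8.70, 12.8, 12.6, 13.5 and 12.4 FPKM in Naïve and at 12.95, 12.2, 15.05 and 8.03 FPKM at 1 day after arrest. The groups had nearly the same mean, with a difference of -0.01 (95% interval -0.36 to 0.34, limma adjusted p = 0.993). Its lowest group was Adr at 1 day, with 8.43, 8.90, 8.32 and 9.54 FPKM. These lay below every library of Adr at 7 days, at 11.7, 11.7, 13.8 and 14.4 FPKM, as did 3.3% of all genes tested, and the difference of -0.50 (SE 0.18) did not pass the test (limma adjusted p = 0.328).

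At the other times after arrest the 5 members that rose at 1 day were not called. At 0.5 days 0 of 10 members passed in limma, where 3.2% of all genes did, with 4 members higher and 1 lower at an unadjusted p under 0.05. At 3 days 0 of 10 passed (0.139% of all genes), with 3 higher at an unadjusted p under 0.05: Map1lc3a at 0.57, Sqstm1 at 0.49 and Gabarapl1 at 0.45 (limma adjusted p from 0.292 to 0.322). Sqstm1 at 3 days was at 141, 135, 97.8 and 98.3 FPKM, above every Naïve library, which held for 1.74% of all genes tested. At 7 days 0 of 10 passed and 0 at an unadjusted p under 0.05, with 0% of all genes called. Of the 16579 genes tested, 3008 at 0.5 days, 2273 at 3 days and 852 at 7 days were under that unadjusted p. These comparisons share the Naïve libraries, so their values are not independent of one another.

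Comparing days within the Arrest groups uses no Naïve library in the difference. Between 1 and 7 days limma called 0 of 10 members (1.88% of all genes), with 3 higher at 1 day at an unadjusted p under 0.05. Of the 16579 genes tested, 2459 were under that unadjusted p. Map1lc3b differed by 0.65 (SE 0.20, limma adjusted p = 0.0779), and every library at 1 day lay above every library at 7 days, which held for 6.56% of all genes tested. Sqstm1 differed by 0.66 (SE 0.24, adjusted p = 0.145) and Bnip3 by 1.02 (SE 0.45, adjusted p = 0.267), each with library 4 of day 1 inside the range of day 7. Without that library Map1lc3b and Sqstm1 were called, at 0.79 and 0.87, and without library 3 of Adr at 3 days, which enters only the shared estimate of spread, Map1lc3b was called (adjusted p = 0.0254). The same held without library 4 of that group (adjusted p = 0.0375). Between 0.5 and 7 days after arrest limma called 0 of 10 (0.38% of all genes), with Map1lc3b at 0.43 and Ulk1 at -0.38 under an unadjusted p of 0.05 (adjusted p of 0.404 and 0.417). There 1901 of the 16579 genes were under that unadjusted p.

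The Adr groups carry the injection and adrenaline without the arrest. Against Naïve, limma called 0 of 10 members at 0.5 days (0.187% of all genes), 0 at 1 day (0.627%), 0 at 3 days (0%) and 0 at 7 days (0%). At an unadjusted p under 0.05, the 0.5-day group had 3 members higher (Map1lc3a 0.65, Sqstm1 0.55 and Gabarapl1 0.49), the 1-day group had Ulk1 lower (-0.40), the 3-day group had 0, and the 7-day group had Foxo1 (0.54, resting in part on Naïve library 4) and Gabarapl1 (0.43) higher. Of all 16579 genes, 2315, 2435, 2297 and 1023 were under that unadjusted p, in the same order of days. At 0.5 days libraries 3 and 4 lay above libraries 1 and 2 in members such as Gabarapl1 and Fbxo32, and not in Map1lc3a. The share of all genes with this split was not computed, so it is not read as a trait of the members. Gabarapl1 was at 46.1 and 38.8 FPKM in libraries 1 and 2 and at 99.0 and 81.7 FPKM in libraries 3 and 4, and Fbxo32 at 9.78 and 9.81 FPKM and at 24.6 and 18.1 FPKM. Within the Adr groups, limma called 0 of 10 members between 0.5 and 7 days (0.00603% of all genes, 0 members at an unadjusted p under 0.05) and 0 of 10 between 1 and 7 days (0.0422%, with Ulk1 alone under an unadjusted p of 0.05). Of all 16579 genes, 1346 and 1604 were under that unadjusted p, in the same order.

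Arrest against Adr on the same day is the comparison of groups that differ by design in the arrest and resuscitation. The libraries also differed in markers. At 1 day the 5 atrial markers summed to 30.02 to 693 FPKM in Adr and 32.7 to 72.7 FPKM in Arrest. Of these, 0 of 4 tested genes were called in limma (3 lower in Arrest at an unadjusted p under 0.05). Ventricular markers summed to 8930 to 11482 FPKM in Adr and 11280 to 13957 FPKM in Arrest. The sums of fibroblast markers were 328 to 447 and 283 to 365 FPKM, and of neutrophil markers 0.777 to 8.96 and 5.81 to 19.5 FPKM. Each of these pairs of ranges overlapped. The part of tissue composition in the differences between Arrest and Adr was not tested. Limma called 0 of 10 members on each of the 4 days, where 0%, 0%, 0% and, at 7 days, 0.00603% of all genes passed. At 1 day the differences were 0.89 for Bnip3 (95% interval -0.02 to 1.81), 0.56 for Sqstm1 (0.08 to 1.04), 0.49 for Gabarapl1 (0.05 to 0.92), 0.48 for Map1lc3a (-0.06 to 1.01) and 0.30 for Map1lc3b (-0.10 to 0.70). The limma adjusted p of these 5 was 0.723 to 0.827. At an unadjusted p under 0.05 there were 3 members higher at 1 day (Sqstm1, Gabarapl1 and Ulk1 at 0.39) and 1 lower at 0.5 days (Trim63), with 0 at 3 and 7 days. Of all 16579 genes, 642 at 0.5, 1093 at 1, 891 at 3 and 419 at 7 days were under it. All 5 members that rose against Naïve overlapped between Arrest and Adr at 1 day. For Bnip3 the Adr libraries were at 58.6, 55.2, 71.8 and 172 FPKM, the last of them just under the lowest of the 3 high Arrest libraries. The rise against Naïve is not shown to be particular to arrest.

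**Figure D4:**
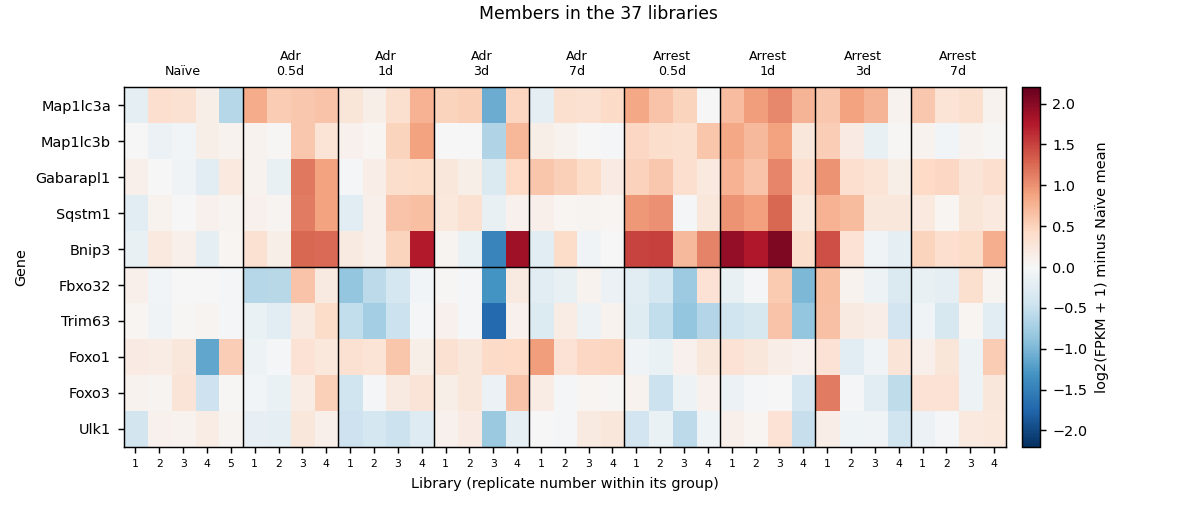
Difference of each library from the Naïve mean in log2(FPKM + 1) (colour, red above and blue below) for the 10 members (rows) in the 37 libraries (columns, by group and replicate number). The Bnip3 row is red in libraries 1 to 3 of Arrest at 1 day and in library 4 of Adr at 1 and 3 days, and library 3 of Adr at 3 days is blue in most rows.

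Across the 9 group means, the members fell into separate orders. Naïve had the lowest and Arrest at 1 day the highest mean for each of the 5 members that rose, with a ratio of highest to lowest mean of 1.64 for Map1lc3b, 1.67 for Gabarapl1, 1.76 for Map1lc3a, 1.86 for Sqstm1 and 3.19 for Bnip3. These 5 were picked by the test between those groups in the same values, so this order follows in part from that choice. For the other 5 members the ratio was 1.33 (Foxo3) to 1.70 (Trim63), and Naïve stood at rank 3 from the top for both ligases, 4 for Ulk1 and 7 for both FoxO factors. In no member did 2 neighbouring groups in this order separate without overlap (0 of 8 neighbouring pairs in each). Neighbours in an order by mean are close in mean, so the ordering itself favours overlap. The share over all genes was not computed, and nothing is read from this about the members.

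The library-to-library spread within groups was shared between some members. Pairs of members (6) were compared by correlation of log2(FPKM + 1) over 37 libraries, with permutation p-values adjusted over the 6 pairs. The permutations shuffled all 37 libraries, so for levels they do not separate differences between groups from spread within groups. How r is spread over all pairs of genes was not computed. Fbxo32 and Trim63 had a Pearson r of 0.82 and a Spearman rho of 0.73 (permutation p = 1e-05 for both, the smallest the permutations can give, adjusted p of 3e-05 and 6e-05), and r was 0.73 without the 2 libraries farthest from the median of Fbxo32. With group means removed, r was 0.83 and rho 0.76 (permutation p = 1e-05 for both, adjusted p of 6e-05 and 3e-05), so the ligases varied together among libraries of 1 group. Sqstm1 and Map1lc3b had r = 0.71 and rho = 0.62 (permutation p = 2e-05 and 5e-05, adjusted p of 4e-05 and 0.0001, r = 0.66 without the 2 farthest libraries). With group means removed r was 0.59 and rho 0.65 (permutation p = 0.00012 and 2e-05, adjusted p of 0.00024 and 4e-05). For Map1lc3b and Gabarapl1, r was 0.68 and rho 0.65 (permutation p = 1e-05 and 2e-05, adjusted p of 3e-05 and 6e-05, r = 0.66 without the 2 farthest). Both measures were 0.69 with group means removed (permutation p = 4e-05 and 1e-05, adjusted p of 0.00012 and 3e-05).

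Foxo3 and its known target Fbxo32 had r = 0.53 and rho = 0.50 (permutation p = 0.001 and 0.0018, adjusted p of 0.0012 and 0.0027, r = 0.43 without the 2 farthest libraries). After group means were removed r was 0.58 and rho 0.59 (permutation p = 0.00032 and 0.00025, adjusted p of 0.00048 and 0.00037). Foxo1 and Foxo3 had r = 0.39 and rho = 0.37 (permutation p = 0.027 and 0.024, the same after adjustment, r = 0.31 without the 2 farthest). After group means were removed r was 0.42 and rho 0.50 (permutation p = 0.017 and 0.002, adjusted p of 0.018 and 0.0024). The 2 LC3 genes were compared in the same way. Map1lc3a and Map1lc3b had r = 0.56 and rho = 0.44 (permutation p = 0.00036 and 0.0057, adjusted p of 0.00054 and 0.0068, r = 0.44 without the 2 farthest). With group means removed r was 0.39 and rho 0.15 (permutation p = 0.018 and 0.38, the same after adjustment), and r was 0.21 without library 3 of Adr at 3 days and Naïve library 5, so within groups the relation rested on those libraries. Differences between these correlations were not tested, and no background of r over other pairs of genes is given, also for Foxo3 and Fbxo32.

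**Figure D5:**
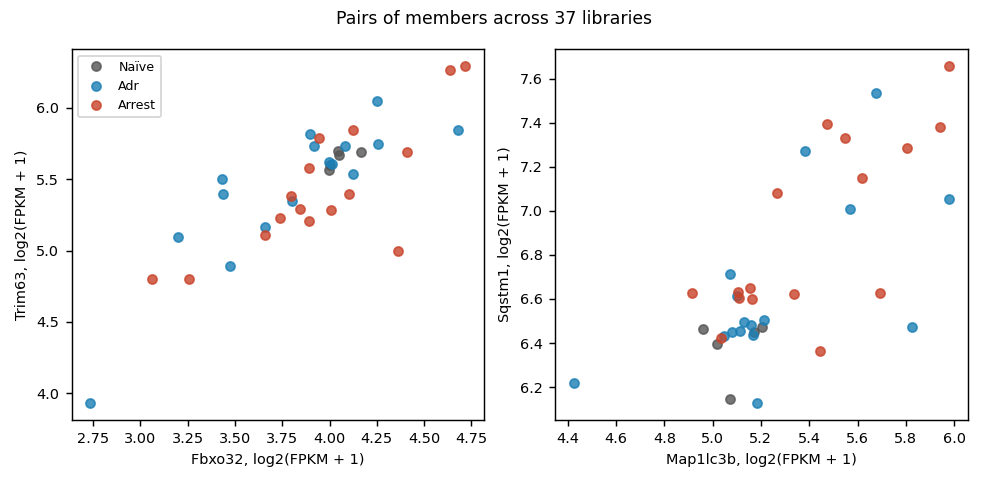
Left, Trim63 against Fbxo32, and right, Sqstm1 against Map1lc3b, each in log2(FPKM + 1), with 1 point for each of the 37 libraries coloured by Naïve, Adr and Arrest. Both pairs rise together (Pearson r of 0.82 and 0.71), and the lowest point of the left panel is library 3 of Adr at 3 days.

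The genes whose levels were most like each member over the 37 libraries, among 11549 genes with a mean of at least 1 FPKM, are given by Pearson r as a measure of likeness. Without library 3 of Adr at 3 days the nearest gene was the same for 8 of the 10 members, not for Bnip3 and Gabarapl1, and 11 of the 30 genes listed lay outside the nearest 3. Fbxo32 and Trim63 were each other's nearest gene (r = 0.82), as were Map1lc3b and Bnip3 (r = 0.92). Next to Map1lc3b stood Pnpla2, the triglyceride lipase ATGL (0.91), and Fbxo31 (0.89), and next to Bnip3 stood Fbxo31 (0.91) and Pla2g12a (0.91). Map1lc3a was nearest to Atp5d (0.93), Cox8b (0.92) and Atp5g3 (0.92), which encode subunits of ATP synthase and of cytochrome c oxidase. Nearest to Sqstm1 were Gclm, a subunit of the enzyme that limits glutathione synthesis (0.88), Glul, glutamine synthetase (0.85), and Fam107a (0.85). Gabarapl1 shared Glul (0.80) and Fam107a (0.80) with Sqstm1, after Adh1 (0.80). Foxo3 was nearest to Sesn1, a stress-induced sestrin (0.68), Rnf144b (0.67) and Ttc38 (0.65), and Foxo1 to Efna1 (0.73), Samd4b (0.72) and Sf3a3 (0.72). Ulk1 was nearest to Fbxo32 (0.76), Dusp18 (0.74) and Tob2 (0.73). After Trim63, Fbxo32 was nearest to Klf9, a glucocorticoid-induced zinc finger factor (0.79), and Dusp18 (0.78), while Trim63 was next nearest to Lrrc10 (0.80) and Fhod3 (0.79, and 0.66 without that library), both proteins of the cardiac sarcomere.

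Of 141 other genes of these pathways, 139 passed the filter. At 1 day after arrest 9 of them were higher and 9 lower than Naïve in limma, where 7.11% of all genes passed, 3.89% higher and 3.22% lower, and their median difference was -0.01 against 0.03 for all genes. At 0.5 days 3 were higher and 7 lower, where 3.2% of all genes passed. In the lists described next, counts of 0 to 3 genes are small, and nothing is read from them about a list. The list genes were not tested again with the gene length trend removed. Over all genes at 1 day after arrest, that setting called 364 higher and 418 lower in place of 645 and 534. At 3 days Gabarap, a further Atg8 homologue, rose by 0.55 (adjusted p = 0.00857) as the only one, where 0.139% of all genes passed. At 7 days 0 of 139 passed (3 at an unadjusted p under 0.05, all higher). Over all 16579 genes, 852 were under that unadjusted p. Between Arrest and Adr, 0 of 139 passed on any day, with 4 higher and 3 lower at an unadjusted p under 0.05 on day 0.5, 8 and 2 on day 1, 5 and 4 on day 3, and 1 and 0 on day 7. The numbers over all 16579 genes, in either direction, were 642, 1093, 891 and 419 on these days.

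A pair of Atg8 genes outside the members also rose at 1 day, both with libraries that overlapped Naïve. Gabarapl2 rose from 30.3 FPKM ± 2.52 (SD, n = 5) to 43.2 FPKM ± 9.57 (SD, n = 4), a difference of 0.48 (limma adjusted p = 0.0361), and Gabarap from 108 FPKM ± 11.8 to 136 FPKM ± 12.04, a difference of 0.34 (limma adjusted p = 0.0303). These were 2 of the 13 other genes of Atg8 conjugation, with 0 lower. Among 20 genes of autophagy initiation 2 rose and 0 fell: Atg13, a subunit of the Ulk1 complex, by 0.88 (limma adjusted p = 0.0258), and Vmp1, an endoplasmic reticulum protein needed for autophagosome formation, by 0.77 (limma adjusted p = 0.0088). At 0.5 days Vmp1 rose by 0.67 (limma adjusted p = 0.0374) and Wipi1, which binds the phosphoinositide of the growing membrane, fell by 0.54 (limma adjusted p = 0.0462). Libraries of Vmp1 overlapped Naïve at both times. Of 12 mitophagy genes Phb2, a mitochondrial inner membrane receptor, rose by 0.55 (limma adjusted p = 0.0192) and 0 fell. Of 11 other receptor genes 1 fell, the large scaffold gene Wdfy3, by 0.43 on the log2 scale (limma adjusted p = 0.0267).

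Lysosomal genes went both ways at 1 day, 2 of 20 higher and 3 lower. The protease gene Ctsl rose by 0.79 (limma adjusted p = 0.0172) and Rab7, the small GTPase of late endosomes, by 0.48 (limma adjusted p = 0.0146). Gaa, the acid glucosidase that degrades lysosomal glycogen, fell from 25.0 FPKM ± 0.793 (SD, n = 5) to 17.2 FPKM ± 0.753 (SD, n = 4), by 0.52 on the log2 scale (limma adjusted p = 0.00733). The other 2 that fell were the fusion genes Epg5 and Stx17. At 0.5 days Gaa, Epg5 and Stx17 were also called as lower, Epg5 and Stx17 with libraries that overlapped Naïve. Rab7 was called as higher and Nedd4 as lower at that time. Among 16 genes of the mTOR and AMPK pathways Eif4ebp1, a repressor of cap-dependent translation, rose by 1.06 (limma adjusted p = 0.00304) and Prkaa2, the AMPK catalytic subunit of muscle, fell by 0.66 (limma adjusted p = 0.0487).

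The calls in the ligase and FoxO lists were few, beside shares over all genes of 3.89% higher and 3.22% lower. Of 15 other muscle ubiquitin ligase genes 0 rose and Nedd4 fell at 1 day, by 0.43 on the log2 scale (limma adjusted p = 0.00468). Of 17 tested regulators of FoxO and the ligases 0 rose and 2 fell, the growth factor gene Igf1 by 0.80 (limma adjusted p = 0.0237) and Nr3c1, the glucocorticoid receptor, by 0.68 (limma adjusted p = 0.0018). Nr3c1 was at 14.0 FPKM ± 1.24 (SD, n = 5) in Naïve and at 8.31 FPKM ± 0.652 (SD, n = 4) at 1 day after arrest, and it also fell at 0.5 days after arrest (by 0.69, adjusted p = 0.00328) and in Adr at 0.5 days (by 0.60, adjusted p = 0.0377) and 1 day (by 0.54, adjusted p = 0.0423). Of 15 other FoxO target genes 1 rose and 1 fell at 1 day. Cdkn1a, the cell cycle inhibitor p21, rose by 1.72 with libraries that overlapped Naïve (limma adjusted p = 0.0152). Sesn3 fell by 0.69 on the log2 scale (limma adjusted p = 0.0016). Both had the same direction at 0.5 days, where Cdkn1a rose by 2.02 (limma adjusted p = 0.0108) and Sesn3 fell by 0.77 (limma adjusted p = 0.000999).

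Within the Arrest groups, 4 of the 139 genes were higher and 3 lower at 1 day than at 7 days, where 1.88% of all genes passed. Vmp1 (0.89), Gabarapl2 (0.64), Rab7 (0.52) and Eif4ebp1 (0.93) were higher, and Nr3c1 (-0.54), Sesn3 (-0.62) and Gaa (-0.48) were lower, with limma adjusted p from 0.0146 to 0.0381. In the Adr groups against Naïve, 1 gene was lower at 0.5 days (Nr3c1), where 0.187% of all genes passed. At 1 day 3 were lower (Nr3c1, Gaa and Epg5), where 0.627% of all genes passed. At both times 0 were higher, and 0 passed at 3 and 7 days. At an unadjusted p under 0.05 there were 10 higher and 16 lower at 3 days and 4 higher at 7 days. Over all 16579 genes, 2297 at 3 days and 1023 at 7 days were under that unadjusted p.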

How the data were processed

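RNA-seq of left ventricular tissue was aligned with HISAT2 (v2.0.5) by or for the authors, who tested with DESeq2. The genome build, annotation, counter and strand are not given in the sources used here. The deposited values are FPKM per gene, 1 column per library, and 77 symbols were shared by several identifiers, which were kept apart. The test used log2(FPKM + 1) of genes that reached 0.5 FPKM in 4 or more libraries, in 1 limma model of 9 group means (limma 3.58.1, R 4.3.3, moderated variances with a trend), two-sided, Benjamini-Hochberg within each of 16 comparisons, threshold 0.05. A fold change on this scale understates that of low genes. Correlations used 100000 permutations (scipy 1.17.1). Groups came from the labels. The members and gene lists were chosen with earlier results of these data known. Named were all members, the called genes of each list (at most the 3 largest per list and comparison, Epg5 and Stx17 besides) and the 3 genes most like each member. Fragments recovered from FPKM, gene length and the smallest step were whole in 100% of values (tolerance 0.01), and give 13.2 to 30.2 M fragments per library. Same-numbered libraries of different groups did not deviate together on average (mean r = -0.01 over 144 pairs, 11 of them over 0.1), and samples were not treated as paired. The 5 deepest libraries are all number 4 of their groups. A mean over all pairs cannot show whether that set shares a batch. Alternatives changed scaling, pseudocount, filter, covariates, weights and libraries.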

Additional observations from a re-analysis of the deposited data

Results flagged for a closer look

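Each member in each of the 9 groups was examined for a single library far from the rest of its group, 90 sets in all, and 6 were found where chance gives about 1 in 20. In Adr at 3 days, library 3 was the lowest for Trim63 (14.3 FPKM, others 47.6 to 52.6) and for Map1lc3a (125 FPKM, others 374 to 389), and it is the library with the low ventricular marker sum. In Adr at 7 days, library 1 was lowest for Map1lc3a (232 FPKM, others 338 to 359). In Naïve, library 1 was lowest for Sqstm1 (69.7 FPKM, others 83.3 to 87.8) and for Ulk1 (8.70 FPKM, others 12.4 to 13.5). In Adr at 1 day, library 4 was highest for Bnip3 (172 FPKM, others 55.2 to 71.8).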

How the results depend on the processing

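For Arrest at 1 day against Naïve (5 members called, each higher under all 50 alternatives), 8 of 50 alternatives moved the count by more than 1.5 times. There were 2 with no filter, 0 with quantile normalization and 2 with the gene length trend removed. With the replicate number as a block there were 3 (replicate block, in which Naïve library 5 alone carries its number). The number in the samples' descriptions as a covariate gave 0. Every such number of Arrest at 1 day lies below every Naïve number, so within this comparison number and group cannot be told apart. That fit called 10 genes higher and 24 lower among all genes. Leaving out 1 library gave 0 to 5 (0 in 2 fits, 2 in 1, 4 in 3 and 5 in 31). For Arrest at 1 day against 7 days (0 called), there were 4 with sample quality weights, 1 in the fit of only the 2 groups, 1 without library 3 of Adr at 3 days and Naïve library 4 (chosen after seeing the data), and 0 to 2 when 1 library was left out. The fit of only the 2 groups also called 3 for Arrest at 0.5 days against Naïve (Trim63, Map1lc3b and Bnip3) and 1 for Arrest at 0.5 days against 7 days. In the other 15 comparisons 0 were reported, and 8 of 750 alternatives gave any call. The causes were not tested. Among all genes at Arrest 1 day, 645 were called higher and 534 lower, against 394 and 624 with quantile normalization and 393 and 487 after rescaling to TPM. Rescaling to TPM moved the median difference of all genes for Adr at 1 day from 0.04 to 0.14. Rescaling by the fragments counted moved that median for Arrest against Adr at 1 day from -0.002 to -0.089. With 4 or 5 libraries per group, the intervals of the uncalled members reach changes of moderate size.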
